A study of Mus musculus with 20 samples.

Results

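The genes described here are used to mark the cells that line the third ventricle beside the arcuate nucleus (ARC). They are 30 of the 22048 genes counted in the series: 15 tanycyte genes (Rax, Col23a1, Vim, Nes, Lhx2, Cd59a, Slc17a9, Fndc3c1, Tgfb2, Frzb, Vcan, Fgf10, Cdh4, Crabp1 and Adm) and 15 ependymal genes (Foxj1, Ccdc153, Tmem212, Rarres2, Dynlrb2, Hdc, Ak7, Mia, Tekt1, Rsph1, Pltp, S100a6, Cfap126, Dnah5 and Spag6). They were chosen by name as cell type genes and not by their response to corticosterone (Cort), and each symbol matched 1 row of the count tables.

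RNA was sequenced from laser captured ARC of male C57BL6/J mice, whose age at treatment the labels give as 10 weeks. The paper gives this age beside the supplier, with acclimatization and baseline periods before treatment, so mice may have been older when treated. Cort mice drank 75 µg/ml corticosterone in 1% ethanol for 2 days or for 4 weeks, and vehicle mice drank 1% ethanol for the same time. All mice of the 4 week dataset were then fasted for 16 h and refed for 24 h before collection, whereas those of the 2 day dataset were not. Each dataset held 5 vehicle and 5 Cort samples, and section thickness, laser instrument and sequencer also changed between the datasets, so the length of treatment cannot be told apart from these.

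From its principal component plots the study left out 3 samples per dataset, namely vehicle C07 and C09 and Cort C08 at 2 days, and vehicle C01 and C05 and Cort C06 at 4 weeks. The tests therefore set 3 vehicle samples against 4 Cort samples, and the values of the samples left out are given beside them, the 2 vehicle samples before the Cort sample. Total counts per sample were 2487063 to 5748223 at 2 days and 1065776 to 5196364 at 4 weeks. A level is given as CPM, the count of a gene scaled to a fixed library size, with TMM factors over the 10 samples of a dataset, and a floor of 3 counts corresponded to 0.522 to 1.21 CPM in the 2 day and 0.577 to 2.81 CPM in the 4 week dataset. Floors cover counting error only, since amplified RNA was sequenced and several reads can stem from 1 molecule. The labels do not say that samples came from separate mice, so the p-values measure the spread between these samples.

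Tanycytes are radial glia-like cells of the ventricle floor and lower walls. They send a long process into the ARC and median eminence, sense nutrients and hormones, convert and transport thyroid hormone, and keep features of neural progenitors, including the intermediate filament proteins encoded by Vim and Nes. Ependymal cells cover the ventricle wall above them and move cerebrospinal fluid with motile cilia, whose formation is directed by the forkhead factor encoded by Foxj1. A motile cilium is built from tektin filaments, dynein motors, radial spokes and a central apparatus, and Tekt1, Dnah5, Rsph1 and Spag6 each encode part of one of these. In whole tissue, fewer cells of a type and less RNA per cell cannot be told apart. Nor can RNA of these genes from tanycytes or ependymal cells be told apart from that of other cells.

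Several genes used to define each cell type were at or near the floor, while others, such as Foxj1 with counts in all 10 samples at 2 days, were not. Slc17a9, which encodes the vesicular nucleotide transporter, had 0 counts in all 20 samples. Rax, the homeobox gene most closely tied to tanycytes, had 0 counts in 4 of the 10 samples at 2 days and in 5 at 4 weeks, and reached at most 1.82 and 18.5 CPM. Adm, which encodes adrenomedullin, stayed at or under 2.50 CPM (2 days) and 5.07 CPM (4 weeks). Among the ependymal genes Tmem212 had counts in 1 sample at 2 days and Spag6 in 2, and Ccdc153 reached 3.48 CPM at most. At 4 weeks Tmem212, Ccdc153 and Rarres2 (chemerin, a secreted chemoattractant) were each at 0 in 6 of 10 samples, and Spag6 was at 0 in all 10.

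Compared per kilobase of exon, the levels of the genes spanned a wide range. At 2 days the mean level over 10 samples was highest for Crabp1, which encodes a cytoplasmic retinoic acid binding protein, at 394 CPM per kb. S100a6, which encodes a calcium binding protein, followed at 58.9 CPM per kb and Rsph1 at 21.0 CPM per kb. The median over all 16255 genes with counts and an annotated length was 3.62 CPM per kb, and 9 of the 15 tanycyte genes and 7 of the 15 ependymal genes lay above it. At 4 weeks Crabp1 and S100a6 again led, at 174 and 22.5 CPM per kb, followed by Col23a1 at 16.8 CPM per kb, and 11 tanycyte and 8 ependymal genes lay above the median of 3.99 CPM per kb. Crabp1 alone made up 42.9% to 61.4% of the summed CPM of the tanycyte genes at 2 days and 3.42% to 27.9% at 4 weeks, so a sum over the list is largely a reading of Crabp1 at 2 days. S100a6 made up 21.7% to 59.0% of the summed CPM of the ependymal genes at 2 days and 2.00% to 30.3% at 4 weeks.

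**Figure D1:**
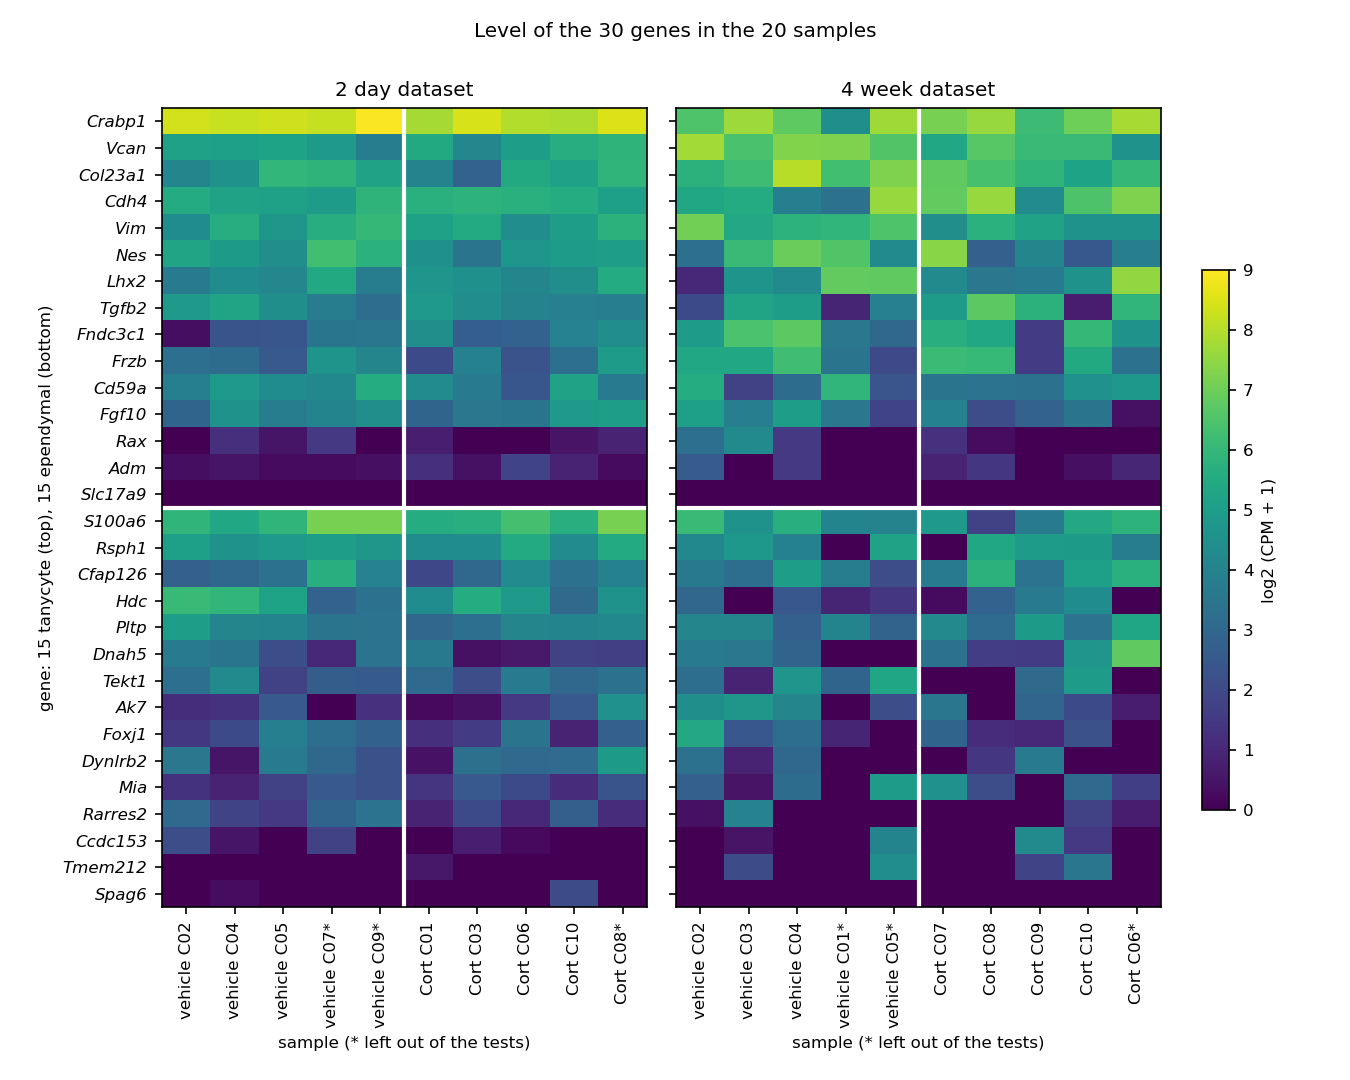
Level of the 30 genes as log2 (CPM + 1), 1 row per gene and 1 column per sample, vehicle left and Cort right within each dataset, with samples left out of the tests marked by an asterisk. Crabp1 is the brightest row at 2 days, the rows of Slc17a9 and Spag6 are dark in nearly all samples, and the 4 week panel is the more uneven of the pair.

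For some of these genes the counts cannot be assigned to a single source. The strand setting of the counting is not given in the sources used here, and the exons of Rax share 1604 bases with those of Raxos1 on the opposite strand. Those of Rarres2 (GRCm38, chr6:48569696-48572789, minus strand) share 892 bases with Lrrc61, and those of Pltp (chr2:164839518-164857711, minus strand) share 495 bases with Ctsa, both on the opposite strand. Mia (chr7:27179742-27181157, minus strand) shares 410 bases with Gm21983 on the same strand. Spag6 in the tables is the gene on chr2:18694032-18750413. Its near copy Spag6l (chr16:16753016-16829456), looked up after the values were seen, ranged from 3.04 to 28.8 CPM in the 2 day dataset and from 0 to 17.6 CPM in the other.

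Promoter windows from RefSeq on GRCm38.p6, from 250 bases before to 50 bases after a start, were found for 24 of the 30 genes, and both strands were searched. The letters GTTGCCA, found in the X-box that RFX factors of ciliary genes bind, were in 1 gene's window, that of Tekt1, and in 4.38% of all 32851 windows. The forkhead letters GTAAACA were in the windows of Ak7 and Fgf10 and in 3.65% of all windows. The homeodomain letters TAATTA, in 5.29% of all windows, and the full palindromic glucocorticoid response element (AGAACA and TGTTCT with 3 bases between), in 0.00913% of all windows, were in none of these genes. The stretches that hold a match lie outside every annotated exon and are shown because they are the only promoter matches among these genes. Capitals mark the matching letters, which in Ak7 and Fgf10 are on the opposite strand, and a match is not evidence of binding.
Tekt1 (chr11:72361883-72361987, minus strand): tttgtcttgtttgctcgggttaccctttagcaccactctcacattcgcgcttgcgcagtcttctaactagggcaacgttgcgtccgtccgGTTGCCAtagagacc
Ak7 (chr12:105705761-105705907, plus strand): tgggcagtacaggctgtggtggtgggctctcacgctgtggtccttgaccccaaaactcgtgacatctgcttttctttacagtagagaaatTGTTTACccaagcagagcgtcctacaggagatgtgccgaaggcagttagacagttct
Fgf10 (chr13:118714598-118714698, plus strand): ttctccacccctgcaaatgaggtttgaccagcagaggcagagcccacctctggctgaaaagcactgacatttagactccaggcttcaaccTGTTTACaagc

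After 2 days of Cort none of these genes passed the study's thresholds, by edgeR or by DESeq2. Of the 30 genes 23 passed the filter on low counts, namely 12 tanycyte and 11 ependymal genes, and Rax, Slc17a9, Adm, Ccdc153, Tmem212, Ak7 and Spag6 did not. Among these 23 no gene reached P below 0.01 (1.49% of all 12309 genes tested) or Padj below 0.1 (0.065% of all genes), by edgeR's quasi-likelihood test with Benjamini-Hochberg adjustment. At an unadjusted P below 0.05 there were 2 genes, Hdc and Fndc3c1, which is 8.70% of the 23 against 5.97% of all genes. Of the tanycyte genes tested 6 were higher and 6 lower with Cort, with a median log2 fold change of -0.01. Of the ependymal genes 3 were higher and 8 lower, with a median of -0.36, and the median of all genes was 0.02.

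The 95% confidence intervals show which changes these samples could have missed. At 2 days the interval lay inside a 2-fold change in either direction for 6 of the 23 genes, and for 8 genes it ran beyond a 2-fold change both upwards and downwards. Crabp1 was the tightest, with a log2 fold change of -0.29 and an interval from -0.62 to 0.04. Cdh4 (0.42, interval -0.16 to 1.00), Vcan (0.01, -0.73 to 0.75) and S100a6 (0.12, -0.47 to 0.72) were also narrow. Mia, which encodes a small secreted protein, had an interval from -1.40 to 2.81 and a mean of 1.60 CPM ± 0.79 (SD, n = 3) in vehicle samples, against 2.62 CPM ± 1.61 (SD, n = 4) in Cort samples.

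**Figure D2:**
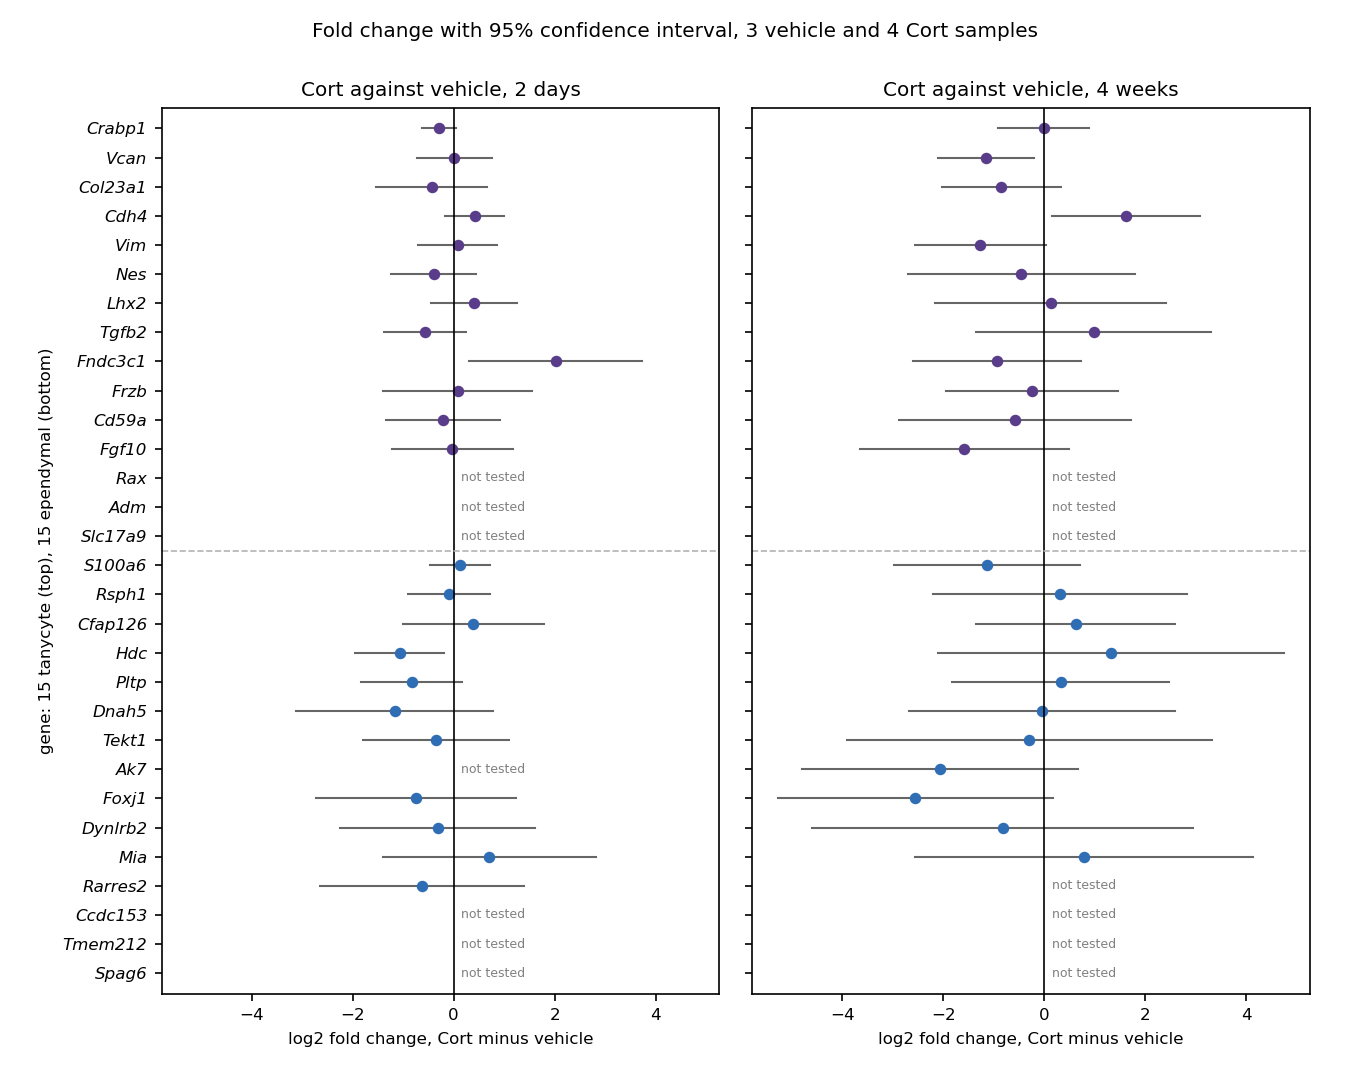
log2 fold change of each gene, Cort minus vehicle, at 2 days (left) and 4 weeks (right). The 95% confidence interval was computed from edgeR's fold change and F statistic (3 vehicle and 4 Cort samples). At 2 days the intervals of Fndc3c1 and Hdc stay on one side of 0 and at 4 weeks those of Vcan and Cdh4 do, and most intervals are wider at 4 weeks.

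Among the tanycyte genes Crabp1 stood at 333, 305 and 328 CPM in the 2 day vehicle samples and at 220.5, 346, 246 and 235 CPM in the Cort samples. The samples left out had 294 and 490.0 CPM with vehicle and 364 CPM with Cort. Cort samples were lower except C03, which was above all 3 vehicle samples, and the groups overlapped. At 4 weeks Crabp1 stood at 90.3, 204 and 108 CPM with vehicle, at 140.1, 196, 70.6 and 129 CPM with Cort, and at 21.1, 209.6 and 226 CPM in the samples left out, with a log2 fold change of -0.01 (interval -0.91 to 0.88).

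Vcan encodes versican, a chondroitin sulfate proteoglycan of the extracellular matrix. It stood at 34.6, 33.2 and 36.6 CPM in the 2 day vehicle samples, at 43.2, 16.8, 31.6 and 47.7 CPM with Cort, and at 27.9, 13.1 and 56.5 CPM in the samples left out. The vehicle samples lay inside the range of the Cort samples. At 4 weeks the vehicle samples had 213.0, 83.6 and 156 CPM and the Cort samples 40.6, 101, 66.0 and 66.7 CPM, with 150.5 and 92.7 CPM in the vehicle samples left out and 23.0 CPM in the Cort sample left out. Only Cort C08, at 101 CPM, reached into the vehicle range.

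Col23a1 encodes a transmembrane collagen. At 2 days it stood at 16.4, 23.1 and 60.8 CPM with vehicle, at 15.2, 6.06, 43.0 and 34.2 CPM with Cort and at 57.5, 35.7 and 58.6 CPM in the samples left out. At 4 weeks it stood at 53.4, 72.4 and 259 CPM with vehicle, at 109.8, 83.3, 57.7 and 36.6 CPM with Cort and at 77.1, 150.5 and 63.3 CPM in the samples left out. Groups overlapped in both datasets, and the highest value in each was a vehicle sample, C05 at 2 days and C04 at 4 weeks. On the log2 scale Cort minus vehicle was -0.43 (SE 0.53) and -0.85 (SE 0.56), in that order. Without vehicle C05 it was 0.33 at 2 days, and without vehicle C04 it was 0.18 at 4 weeks.

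Cdh4, which encodes the adhesion molecule R-cadherin, was one of 2 genes whose 7 samples did not overlap at 2 days. It stood at 45.5, 35.8 and 34.4 CPM with vehicle, at 51.7, 55.2, 51.1 and 46.5 CPM with Cort and at 30.4, 56.2 and 32.6 CPM in the samples left out. The distance between the groups was small, with 45.5 CPM in the highest vehicle and 46.5 CPM in the lowest Cort sample, and with all 10 samples the groups overlapped. At 4 weeks Cdh4 stood at 41.6, 45.4 and 13.4 CPM with vehicle, at 114, 196, 19.1 and 87.9 CPM with Cort and at 9.18, 196 and 152 CPM in the samples left out. Of the 4 Cort samples 3 were above all vehicle samples kept, whereas vehicle C05, which was left out, was as high as the highest Cort sample.

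Vim and Nes encode the intermediate filaments vimentin and nestin. Vim stood at 19.7, 47.6 and 26.2 CPM in the 2 day vehicle samples, at 34.1, 44.5, 20.5 and 32.2 CPM with Cort and at 47.8, 62.2 and 53.4 CPM in the samples left out. The 4 week levels were 136, 42.2 and 56.0 CPM with vehicle, 20.8, 52.2, 35.0 and 23.4 CPM with Cort and 59.7, 90.6 and 23.3 CPM in the samples left out. Cort samples were the lower ones at 4 weeks, with Cort C08 alone above a vehicle sample. The log2 fold change there was -1.26 (SE 0.61), and it was -0.58 without vehicle C02.

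Nes stood at 37.3, 28.7 and 20.9 CPM in the 2 day vehicle samples, at 22.0, 10.1, 25.7 and 29.4 CPM with Cort and at 76.5, 52.8 and 31.7 CPM in the samples left out. At 4 weeks it stood at 8.79, 67.2 and 122 CPM with vehicle, at 168, 5.71, 16.0 and 4.61 CPM with Cort and at 92.7, 18.9 and 13.5 CPM in the samples left out. A single Cort sample, C07 at 168 CPM, was more than 10 times as high as the other 3 kept. The log2 fold change at 4 weeks was -0.45 with it, -2.93 without it, and 0.35 without vehicle C04.

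The remaining tanycyte genes are given by their group means. At 2 days Lhx2, which encodes a LIM homeodomain factor, stood at 16.1 CPM ± 3.89 (SD, n = 3) in vehicle samples, against 21.2 CPM ± 3.71 (SD, n = 4) in Cort samples. Tgfb2, the gene of a secreted growth factor, stood at 28.8 CPM ± 7.94 (SD, n = 3) and 19.3 CPM ± 6.12 (SD, n = 4). Frzb, the gene of a secreted Wnt antagonist, stood at 7.12 CPM ± 2.15 (SD, n = 3) and 7.56 CPM ± 5.25 (SD, n = 4). For these 3 genes, as for the complement regulator gene Cd59a (log2 fold change -0.22) and the growth factor gene Fgf10 (-0.03), the groups overlapped and the unadjusted P was above 0.05. Without Cort C06 the value of Cd59a was 0.12.

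Fndc3c1, which encodes a protein with fibronectin type III domains, was the other gene without overlap at 2 days and is given by sample because of that result. It stood at 0.249, 4.10 and 4.27 CPM with vehicle and at 20.8, 5.39, 6.07 and 14.7 CPM with Cort. The samples left out had 10.3 and 10.6 CPM with vehicle and 20.1 CPM with Cort, so that the groups of 5 overlapped. Vehicle C02 was below the floor of 3 counts, and every Cort sample was above every vehicle sample kept. The log2 fold change was 2.02 (SE 0.82), with Padj = 0.761 by edgeR's quasi-likelihood test with Benjamini-Hochberg adjustment, and 1.20 over all 10 samples.

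The 2 genes without overlap at 2 days were 8.70% of the 23 tested, against 6.63% of all genes tested. Over all 10 samples none of the 23 genes tested was without overlap, where 0.801% of all genes were. Over all 10 samples Nes was the only gene with an unadjusted P below 0.05, against 5.28% of all genes, with a log2 fold change of -0.85 that was -0.40 over the 7 samples.

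Hdc was the ependymal gene with the lowest P at 2 days. It encodes histidine decarboxylase, the enzyme that makes histamine, and is also known in the histamine neurons that lie behind the ARC. It stood at 65.7, 59.3 and 36.6 CPM in the vehicle samples and at 19.97, 46.5, 27.9 and 7.56 CPM with Cort. Cort C03 was above vehicle C05, and the vehicle samples left out were far lower than those kept, at 6.07 and 9.13 CPM beside 23.6 CPM in the Cort sample left out. The log2 fold change was -1.07 (interval -1.95 to -0.18), with Padj = 0.754 by edgeR's quasi-likelihood test with Benjamini-Hochberg adjustment, and -0.48 over all 10 samples. At 4 weeks Hdc stood at 6.76, 0 and 4.48 CPM with vehicle, at 0.206, 6.19, 11.9 and 19.98 CPM with Cort and at 0.918, 1.68 and 0 CPM in the samples left out.

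S100a6 stood at 58.5, 39.7 and 58.4 CPM in the 2 day vehicle samples and at 47.1, 49.2, 80.0 and 48.5 CPM with Cort. The samples left out had 141, 142 and 141 CPM. Kept groups overlapped, and each sample left out was higher than all 7 kept. At 4 weeks S100a6 stood at 65.6, 23.3 and 48.4 CPM with vehicle, at 27.2, 2.38, 12.4 and 41.8 CPM with Cort and at 15.6, 15.1 and 56.0 CPM in the samples left out. Its log2 fold change was 0.12 at 2 days, and -0.10 without Cort C06. The 4 week value was -1.13 (SE 0.87), and -0.27 over all 10 samples.

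Rsph1 encodes a protein of the radial spoke head. At 2 days it stood at 32.8, 22.9 and 27.7 CPM with vehicle, at 19.8, 19.5, 44.8 and 19.1 CPM with Cort and at 32.0, 26.0 and 43.8 CPM in the samples left out. The 4 week levels were 17.6, 26.9 and 14.3 CPM with vehicle, 0, 40.5, 29.4 and 28.6 CPM with Cort and 0, 35.2 and 12.6 CPM in the samples left out. Of the ciliary genes it was the most even at 2 days, where Cort C06 and C08 were the high ones, while at 4 weeks Cort C07 and vehicle C01 had no counts at all.

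Cfap126 encodes a protein of the ciliary base. At 2 days it stood at 5.72, 7.11 and 9.35 CPM with vehicle, at 2.90, 7.07, 19.3 and 9.15 CPM with Cort and at 48.8, 14.8 and 14.5 CPM in the samples left out. At 4 weeks it stood at 11.5, 8.44 and 32.2 CPM with vehicle, at 11.8, 54.1, 9.79 and 32.6 CPM with Cort and at 12.9, 3.35 and 51.9 CPM in the samples left out. The groups overlapped in both datasets, with log2 fold changes of 0.39 (SE 0.67) and 0.63 (SE 0.93). Without Cort C06 the 2 day value was -0.22.

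Pltp encodes phospholipid transfer protein. At 2 days it stood at 31.6, 16.2 and 15.9 CPM with vehicle, at 6.83, 8.76, 16.3 and 15.5 CPM with Cort and at 9.92, 9.70 and 17.2 CPM in the samples left out. The 4 week levels were 16.2, 16.1 and 5.82 CPM with vehicle, 17.95, 7.86, 28.9 and 9.84 CPM with Cort and 15.6, 6.29 and 38.1 CPM in the samples left out. Vehicle C02 was the high sample at 2 days, and the log2 fold changes were -0.83 (SE 0.48) and 0.33 (SE 1.01). Without Cort C09 the 4 week value was -0.11.

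Dnah5 encodes a heavy chain of the outer dynein arm. At 2 days it stood at 11.9, 10.4 and 3.46 CPM with vehicle, at 11.4, 0.337, 0.536 and 2.39 CPM with Cort and at 1.01, 9.70 and 2.25 CPM in the samples left out. At 4 weeks it stood at 11.8, 11.3 and 6.27 CPM with vehicle, at 9.49, 2.14, 2.06 and 24.6 CPM with Cort and at 0, 0 and 109.6 CPM in the samples left out. Cort C01 was the exception at 2 days, and without it the log2 fold change moved from -1.17 (SE 0.94) to -3.02. At 4 weeks a single sample left out, Cort C06, was higher than any other sample of the dataset.

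The other ependymal genes were low. At 2 days Tekt1 stood at 9.75 CPM ± 7.89 (SD, n = 3) in vehicle samples, against 7.50 CPM ± 3.52 (SD, n = 4) in Cort samples. Foxj1 stood at 6.13 CPM ± 6.52 (SD, n = 3) and 3.55 CPM ± 4.33 (SD, n = 4), so that the log2 value of Cort minus vehicle was -0.74 (SE 0.95), and 0.61 without vehicle C05. That of Tekt1 was -0.36 (SE 0.69), and 0.45 without vehicle C04. Dynlrb2, a dynein light chain gene, and Rarres2 had log2 fold changes of -0.32 (SE 0.93) and -0.62 (SE 0.97), and each of these 4 genes overlapped between groups. Without vehicle C02 that of Rarres2 was 0.22, and without vehicle C05 that of Dynlrb2 was 0.14 and without Cort C01 0.10. Ak7, which encodes an adenylate kinase of motile cilia, was not tested and stood at 1.24, 1.51 and 4.68 CPM with vehicle and at 0.171, 0.337, 1.79 and 4.77 CPM with Cort.

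At 4 weeks none of these genes passed the thresholds either, by edgeR or by DESeq2. Again 23 of the 30 genes passed the filter, with Ak7 now tested and Rarres2 not, and none of the 23 reached P below 0.01 (1.03% of all 11211 genes tested) or Padj below 0.1 (0.0446% of all genes) by edgeR's quasi-likelihood test with Benjamini-Hochberg adjustment. An unadjusted P below 0.05 was reached by Vcan and Cdh4, or 8.70% of the 23 against 4.91% of all genes. Of the 12 tanycyte genes 3 were higher and 9 lower with Cort, with a median log2 fold change of -0.51. Of the 11 ependymal genes 5 were higher and 6 lower, with a median of -0.04, and the median of all genes was 0.04.

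Vcan had a log2 fold change of -1.15 (interval -2.10 to -0.20), and it was -1.25 over all 10 samples. Padj was 0.990 over the 7 samples by edgeR's quasi-likelihood test with Benjamini-Hochberg adjustment. Leaving out vehicle C02 brought it to -0.80. Cdh4 had a log2 fold change of 1.62 (interval 0.16 to 3.08) over the 7 samples and 0.87 over all 10. With all 10 samples Vcan and Vim were the genes with an unadjusted P below 0.05, where 4.90% of all genes were.

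Of the genes tested, the one that did not overlap at 4 weeks was Ak7, 4.35% of the 23 tested against 6.53% of all genes. It stood at 21.3, 26.1 and 16.1 CPM with vehicle and at 10.5, 0, 6.70 and 3.07 CPM with Cort. The samples left out had 0 and 3.35 CPM with vehicle and 0.630 CPM with Cort, and over all 10 samples none of the 22 genes then tested was without overlap, where 0.942% of all genes were. Ak7 had a log2 fold change of -2.07 (SE 1.29). At 2 days its highest value, 22.7 CPM, was in Cort C08.

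Foxj1, the forkhead gene of motile cilia, had 1 high sample at 4 weeks. It stood at 41.9, 4.42 and 8.51 CPM with vehicle and at 6.39, 1.19, 1.03 and 3.69 CPM with Cort. Vehicle C02 was far above the other vehicle samples, and the samples left out had 0.918, 0 and 0 CPM. Its log2 fold change was -2.55 (interval -5.28 to 0.17), and -1.05 without vehicle C02.

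Rax was not tested at 4 weeks because of its low counts. It stood at 8.79, 18.5 and 1.79 CPM in the vehicle samples, at 1.44, 0.238, 0 and 0 CPM with Cort and at 0 CPM in all 3 samples left out. The vehicle samples kept were above the Cort samples kept, while those left out were not. Fitted with no filter on low counts, the log2 fold change was -4.33 (SE 2.02), with Padj = 0.694 by edgeR's quasi-likelihood test with Benjamini-Hochberg adjustment over 15430 genes.

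For the other genes tested at 4 weeks the means and the spread were as follows. Lhx2 stood at 14.8 CPM ± 12.3 (SD, n = 3) in vehicle samples, against 16.4 CPM ± 6.05 (SD, n = 4) in Cort samples. Fndc3c1 stood at 74.0 CPM ± 38.5 (SD, n = 3) and 38.8 CPM ± 26.1 (SD, n = 4). Fgf10 stood at 25.5 CPM ± 10.7 (SD, n = 3) and 8.58 CPM ± 4.92 (SD, n = 4), with a log2 fold change of -1.58 (SE 0.98). Only in Fgf10 did the groups nearly part, with 13.3 CPM in the lowest vehicle and 14.7 CPM in the highest Cort sample. The log2 fold changes of Tgfb2, Frzb and Cd59a were 0.98 (SE 1.10), -0.24 (SE 0.80) and -0.58 (SE 1.09). Those of the ependymal genes Tekt1, Dynlrb2 and Mia were -0.29 (SE 1.70), -0.82 (SE 1.78) and 0.79 (SE 1.58). Single samples turned the direction of several of these genes. Without vehicle C02 Cd59a was at 1.31 and Lhx2, at 0.14 over the 7 samples, at -0.40. Without vehicle C04 Tekt1 was at 1.01 and Frzb at 0.11, and without Cort C07 Mia was at -0.39.

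The spread between samples of a group was larger at 4 weeks, for these genes as for all genes. The median within-group SD of log2 CPM was 0.56 for the tanycyte and 0.88 for the ependymal genes tested at 2 days, where it was 0.46 for all genes. At 4 weeks it was 1.29 and 1.38, and 0.94 for all genes. Of the genes tested Cdh4 was the steadiest at 2 days, with an SD of 0.16, and Vcan at 4 weeks, with 0.60. The widest were Dynlrb2 at 2 days (1.91) and Tekt1 at 4 weeks (2.48). The confidence interval lay inside a 2-fold change in either direction for 1 gene at 4 weeks, Crabp1, and ran beyond it both ways for 13 of 23.

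Whether the Cort difference changed between the datasets was tested as an interaction over the 14 samples kept. Of the 30 genes 24 were tested, and none reached P below 0.01 (1.35% of all 12777 genes) or Padj below 0.1 (0.0157% of all genes) by edgeR's quasi-likelihood test with Benjamini-Hochberg adjustment. By DESeq2 1 gene of the 24, Fndc3c1, had P below 0.01, where 338 of all genes did. It was also the gene with an unadjusted P below 0.05 by edgeR, or 4.17% of the 24 against 6.49% of all genes. Its Cort difference was 2.02 (SE 0.82) at 2 days and -0.94 (SE 0.79) at 4 weeks on the log2 scale, an interaction of -2.95 (interval -5.45 to -0.45). Over all 20 samples the interaction of Fndc3c1 was -1.63 (SE 1.14). Vcan differed by -1.16 (SE 0.59), Vim by -1.34 (SE 0.74) and Hdc by 2.38 (SE 1.42). The interval ran beyond a 2-fold difference both ways for 16 of the 24 genes.

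**Figure D3:**
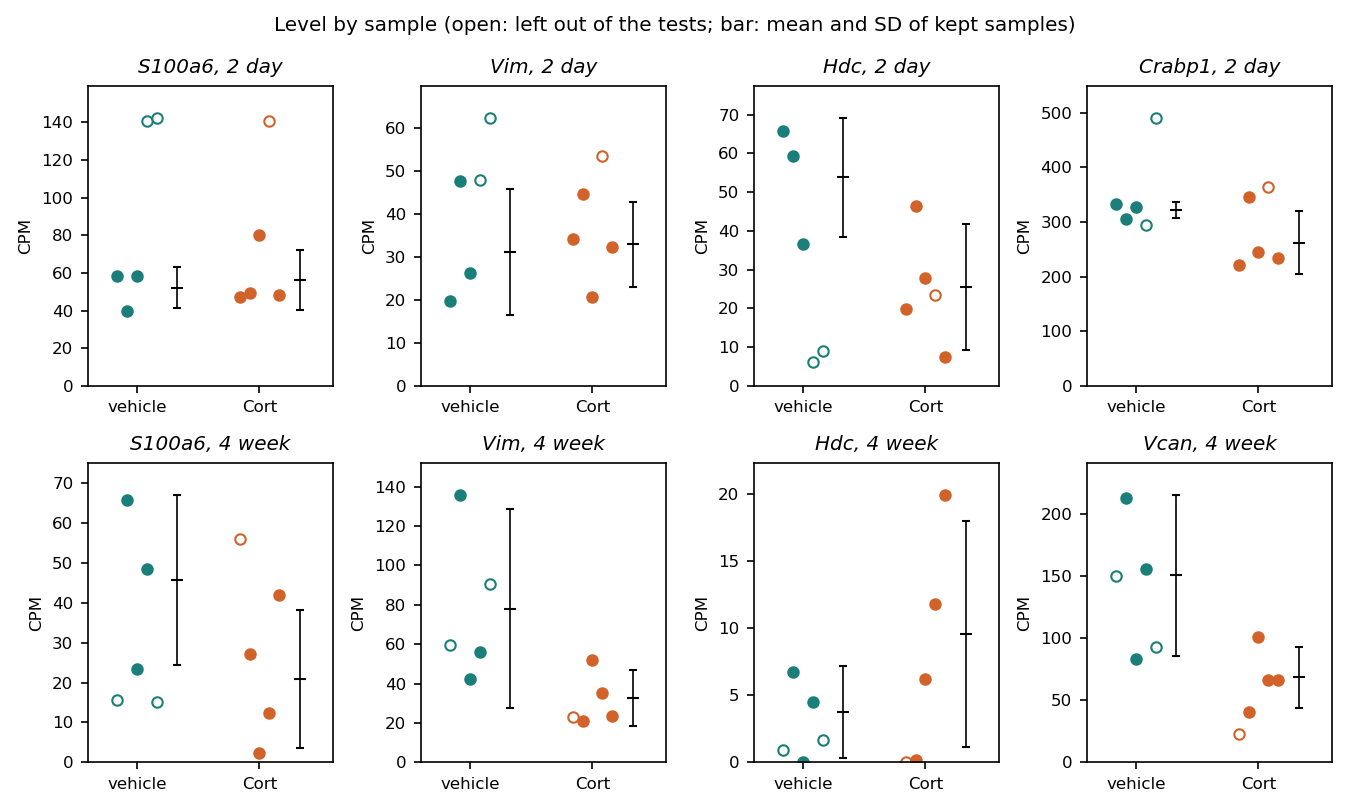
CPM by sample for S100a6, Vim, Hdc and Crabp1 at 2 days (top) and S100a6, Vim, Hdc and Vcan at 4 weeks (bottom), with open points for samples left out of the tests and the mean ± SD of the kept samples beside each group (3 vehicle, 4 Cort). At 2 days the open points of S100a6 lie at 141 to 142 CPM above all filled points, and the 2 open vehicle points of Hdc lie below all filled vehicle points, at 6.07 and 9.13 CPM.

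Some of these genes differed between the samples kept and those left out at 2 days. Summed over the 15 tanycyte genes, the 7 samples kept had 477 to 595 CPM and the 3 left out 660.2 to 826 CPM. The ependymal genes summed to 120.3 to 241 CPM in those kept and to 241 to 315 CPM in those left out. The tanycyte sums did not overlap, and the ependymal sums met at 241 CPM, in vehicle C02 and C09. Without Crabp1 the other 14 tanycyte genes still did not overlap, at 218 to 313 CPM in those kept and 336 to 387 CPM in those left out. Without S100a6 the other 14 ependymal genes overlapped, at 73.2 to 183 CPM in those kept and 98.7 to 174 CPM in those left out. Of the 14 tanycyte genes with counts, 10 had their highest value in a sample left out, as did 5 of the 15 ependymal genes and 41.7% of all 16309 genes with counts. The study chose these samples from the same expression values, so this is a description with no test.

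By gene, 3 of 23 genes were higher in all 3 samples left out than in all 7 kept, S100a6, Vim and Frzb, which is 13.0% where 4.41% of all genes were. Frzb stood at 24.1 and 16.3 CPM in the vehicle samples left out and 29.7 CPM in the Cort sample left out, and at 3.07 to 14.5 CPM in those kept. Tgfb2 was lower in all 3, at 12.8, 8.27 and 13.3 CPM against 14.3 to 37.3 CPM, or 4.35% of the 23 where 3.37% of all genes were. At 4 weeks Lhx2 was higher in all 3 left out, at 114, 111 and 187 CPM against 1.01 to 24.5 CPM in those kept, or 4.55% of 22 genes where 1.20% of all genes were. Foxj1 was lower in all 3, also 4.55% of 22 genes, where 2.50% of all genes were. In the same 3 samples 8 fibroblast and meningeal genes summed to 287 to 532 CPM, and to 119 to 195 CPM in those kept. Pdgfra had the highest mean of these 8 genes and made up 11.5% to 89.6% of the sum over the 10 samples. Where its share was high the sum is largely a reading of Pdgfra, and which cells carried it was not tested. The fibroblast gene Dcn itself overlapped, at 56.9, 182 and 0 CPM in the samples left out and 2.41 to 66.2 CPM in those kept. Its 0 CPM was in Cort C06, the sample with the highest sum, 532 CPM.

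**Figure D4:**
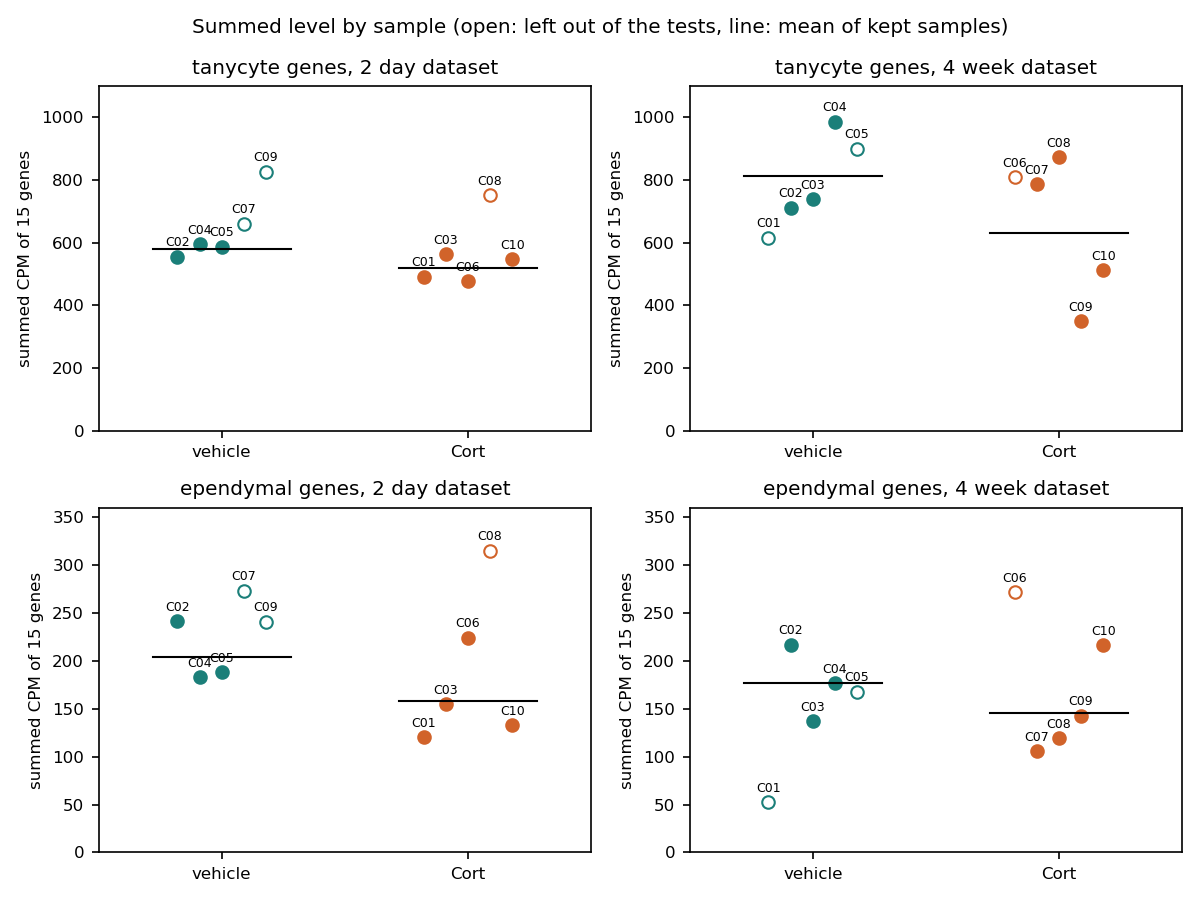
Summed CPM of the 15 tanycyte genes (top) and the 15 ependymal genes (bottom) by sample, with open points for samples left out of the tests and a line at the mean of the samples kept. In the 2 day dataset the 3 open points of the tanycyte genes lie at 660.2 to 826 CPM, above the 7 filled points at 477 to 595 CPM, while vehicle and Cort points overlap in the 4 week plots.

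Some lists of other marker genes were also higher in the 2 day samples left out, and others overlapped. Summed over 12 astrocyte genes, the 2 day samples left out had 8318 to 11430 CPM and those kept 5989 to 8290 CPM. The astrocyte gap junction gene Gja1 itself overlapped, at 111 to 204 and 111 to 176 CPM. A list of 28 other tanycyte and radial glia genes, none of them among the 12, summed to 2450 to 2915 CPM in those left out and to 1762 to 2068 CPM in those kept. The 9 arcuate neuron genes reached 2248 to 3221 CPM in those left out and 1296 to 2453 CPM in those kept, and the 7 oligodendrocyte genes 498 to 811 and 352 to 616 CPM. The ranges of both lists overlapped. Ranges also overlapped for fibroblast and meningeal (120 to 176.5 and 101 to 192 CPM) and endothelial genes (102 to 184 and 138 to 164 CPM). The same held for pituitary genes, genes of ventromedial nucleus neurons and 64 other motile cilium genes (1082 to 1122 and 873 to 1185 CPM). Choroid plexus genes did not follow, with 225 to 304 CPM in those left out and 260.1 to 341 CPM in those kept. Prlr alone made up 53.2% to 72.0% of that sum, so it is largely a reading of Prlr. The defining choroid plexus gene Ttr was at 0.405 to 17.9 CPM in all 10 samples. The part of these other cells in the levels of the tanycyte and ependymal genes was not tested.

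Between vehicle and Cort the summed levels overlapped. At 2 days the tanycyte genes summed to 579 CPM ± 20.7 (SD, n = 3) in vehicle samples, against 520.1 CPM ± 42.5 (SD, n = 4) in Cort samples, and the ependymal genes to 204 CPM ± 32.4 (SD, n = 3) and 158 CPM ± 46.4 (SD, n = 4). At 4 weeks the tanycyte genes summed to 812 CPM ± 151 (SD, n = 3) and 630.2 CPM ± 242 (SD, n = 4), and the ependymal genes to 177 CPM ± 39.8 (SD, n = 3) and 146 CPM ± 49.2 (SD, n = 4). All 4 means were lower with Cort over the samples kept, and all 4 pairs of groups overlapped. In the samples left out the single Cort sample was instead above the mean of the vehicle samples. For the tanycyte genes it had 751 against 743 CPM at 2 days and 810 against 758.5 CPM at 4 weeks. For the ependymal genes it had 315 against 257 CPM and 272 against 110 CPM, in that order. Without Crabp1 the 2 day tanycyte sums were 223, 290 and 259 CPM with vehicle and 271, 218, 231 and 313 CPM with Cort. The lowest and the highest of these were both Cort samples. The highest 4 week ependymal sum was in the Cort sample left out, at 272 CPM, while the vehicle samples left out had 52.3 and 168 CPM. Among other cells, the arcuate neuron genes at 2 days summed to 1296 to 1746 CPM with vehicle and 1843 to 2453 CPM with Cort, and the oligodendrocyte genes to 352 to 426 and 434 to 616 CPM. At 4 weeks the 12 astrocyte genes summed to 4262 to 4370 CPM with vehicle and 4712 to 6132 CPM with Cort. These 3 lists did not overlap between the groups kept. In the vehicle samples left out they summed to 2497 and 2248 CPM, 701 and 498 CPM, and 3057 and 5836 CPM, in that order. With all 10 samples the groups therefore overlapped in each list. The part of these lists in the values of the tanycyte and ependymal genes was not tested.

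Of 64 other motile cilium genes, 46 were tested at 2 days and 47 at 4 weeks, and none reached P below 0.01 in either dataset. At 2 days 27 were higher and 19 lower with Cort, with a median log2 fold change of 0.10, and at 4 weeks 21 were higher and 26 lower, with a median of -0.29. Their summed level was 873 to 1185 CPM in the 2 day samples kept. At 4 weeks it was 1389 to 1631 CPM with vehicle and 1113 to 1279 CPM with Cort, and these did not overlap, but the Cort sample left out had the highest sum of all, 1744 CPM. The largest share of the sum was that of Rfx3, which encodes a transcription factor that is not limited to ciliated cells.

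All 28 other tanycyte and radial glia genes were tested at 2 days and 27 at 4 weeks. At 2 days 2 of the 28 were higher with Cort at an unadjusted P below 0.01, which 1.49% of all genes reached in either direction. Dio2, which encodes the deiodinase that activates thyroid hormone and is carried by tanycytes and astrocytes, stood at 22.1, 55.2 and 28.3 CPM with vehicle and at 111.5, 90.9, 50.7 and 107.8 CPM with Cort, a log2 fold change of 1.36 (SE 0.33). In the samples left out it stood at 196, 73.3 and 211 CPM. Prdx6, a peroxiredoxin gene, stood at 146.5, 185 and 166 CPM with vehicle and at 249, 225, 208 and 243 CPM with Cort, a log2 fold change of 0.49 (SE 0.16). Of these 2 genes Prdx6 was without overlap between the groups kept, as were 6.63% of all genes tested. In the samples left out Prdx6 stood at 352 and 265.5 CPM with vehicle and 387 CPM with Cort, so with all 10 samples the groups overlapped. Padj was 0.439 for Dio2 and 0.555 for Prdx6 by edgeR's quasi-likelihood test with Benjamini-Hochberg adjustment. By DESeq2 Padj was 0.0354 for Dio2, below 0.1, and 0.183 for Prdx6. Over all 10 samples the log2 fold changes by edgeR were 0.62 and 0.25.

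At 4 weeks Gpr50, an orphan receptor gene known in tanycytes, was the 1 gene of the 27 with P below 0.01, which 1.03% of all genes reached. It stood at 277, 358 and 513 CPM with vehicle, at 169.8, 209, 99.98 and 272 CPM with Cort and at 510.4, 214 and 376 CPM in the samples left out. The highest Cort sample kept, C10, was just below the lowest vehicle sample kept, C02. The groups kept were thus without overlap, as were those of 6.53% of all genes tested, and with all 10 samples the groups overlapped. The log2 fold change was -1.04 (SE 0.34), with Padj = 0.918 by edgeR's quasi-likelihood test with Benjamini-Hochberg adjustment, and -0.75 over all 10 samples. At 2 days Gpr50 had 45.8 CPM ± 10.3 (SD, n = 3) in vehicle samples, against 51.0 CPM ± 19.0 (SD, n = 4) in Cort samples.

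Defining markers of other cells varied by sample. Ttr reached at most 5.67 CPM at 4 weeks and was at 0 in 6 of 10 samples there. Cga, the pituitary glycoprotein hormone gene, was at 0 in 8 of 10 samples at 4 weeks but stood at 29.6 CPM in Cort C03 and 29.95 CPM in vehicle C09 at 2 days. Nr5a1, which defines neurons of the neighbouring ventromedial nucleus, did not pass 2.44 CPM at 2 days. The endothelial gene Cldn5 had a maximum of 12.3 CPM (2 days) and 16.7 CPM (4 weeks), and the fibroblast gene Dcn 87.6 CPM at 2 days, again in Cort C03, and 182 CPM at 4 weeks, in vehicle C05. The neuronal gene Agrp was present in every sample, at 18.03 CPM or more.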

How the data were processed

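Per the paper's methods, the authors mapped single-end reads to GRCm38 with Rsubread and assigned them to genes with featureCounts, and deposited a raw count per gene for 10 samples per dataset. The submitters' processing notes also name CASAVA 1.7 and DESeq2. The annotation release, and how strand and multi-mapping reads were handled, are not given in the sources used here. The authors' deposited signal values are counts divided by a size factor over the 7 samples kept, and served only to pair gene identifiers with symbols. At 2 days, 5 of these 7 columns carried a name other than that of the raw counts they came from, and the names of the raw tables were used. The authors' fold changes and p-values in the same tables were not used.

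Groups follow the labels. Raw counts were filtered by edgeR's filterByExpr, scaled by TMM and compared by edgeR's 2-sided quasi-likelihood test with Benjamini-Hochberg adjustment over all genes, with no covariate and at P below 0.01 and at Padj below 0.1, as in the study (R 4.3.3, edgeR 4.0.16, limma 3.58.1, DESeq2 1.42.0, Python 3.11.15, pandas 2.3.3, numpy 2.4.6, matplotlib 3.10.9). The fit was tested on simulated data. CPM used all 10 samples of a dataset, and the spread of log2 CPM used a prior count of 2. Exon lengths and positions came from GENCODE vM21 on GRCm38. Total counts ran from 1065776 to 5748223.

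All 30 genes are named. Values by sample are given for the 6 tanycyte and 6 ependymal genes with the highest mean CPM, and for Fndc3c1, Ak7, Foxj1, Frzb, Tgfb2, Lhx2 and Rax, which were added after their values were seen. Other cilium, tanycyte and radial glia genes are named at P below 0.01. The genes and lists were chosen with earlier results of these data known. The alternatives were DESeq2, upper quartile scaling, no filter, a minimum of 10 counts in each sample, the fit of every sample, CPM without TMM, and leaving out each sample.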

Additional observations from a re-analysis of the deposited data

Results flagged for a closer look

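Among the 12 genes given by sample, 48 groups of 5 samples were examined for 1 sample far from the other 4 (Dixon's gap divided by the range, at the 95% critical value), and 6 groups held one. Chance alone marks about 1 in 20 where values follow a normal distribution. CPM were not checked for this, and the groups held samples left out for their expression, so 6 of 48 cannot be set against it. Of the 6 samples, 4 were among those the study left out and 2 were kept. Nes in the 4 week dataset stood at 168.1 CPM in Cort C07 against 4.61 to 16.0 CPM in the other Cort samples. Dnah5 stood at 11.44 CPM in 2 day Cort C01 against 0.337 to 2.39 CPM, and at 109.6 CPM in 4 week Cort C06, which was left out, against 2.06 to 24.6 CPM. Cdh4 stood at 195.8 CPM in 4 week vehicle C05, left out, against 9.18 to 45.4 CPM. Crabp1 stood at 490.0 CPM in 2 day vehicle C09, left out, against 294 to 333 CPM. Cfap126 stood at 48.79 CPM in 2 day vehicle C07, left out, against 5.72 to 14.8 CPM. In all 6 the sample far from the others was the highest of its group.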

How the results depend on the processing

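No gene of the 30 reached Padj below 0.1 under any alternative run, at 2 days, at 4 weeks or in the interaction. The number at P below 0.01, which was 0 for each list, moved in single cases. At 2 days leaving out 1 sample gave 0 to 1 tanycyte and 0 to 1 ependymal genes: Crabp1 (log2 fold change -0.45) or Hdc (-1.51) without Cort C03, and Dnah5 (-3.02) without Cort C01. Of all genes 197 passed without Cort C03 and 187 without Cort C01. With no filter on low counts 1 ependymal gene, Hdc, passed, where 284 of all genes did. At 4 weeks leaving out 1 sample gave 0 to 1 tanycyte genes: Vcan (-1.43) without vehicle C03, Nes (-2.93) without Cort C07 or Cdh4 (1.96) without Cort C09. Of all genes 82 to 120 passed in these runs. In the interaction DESeq2 gave 1 tanycyte gene (Fndc3c1) and all 20 samples gave 1 (Vcan, -1.67), where 338 and 170 of all genes passed. The 2 genes without overlap at 2 days became 0 over all 10 samples, and the 1 at 4 weeks became 0 over all 10 samples and 2 on CPM with no TMM scaling. The cause was not tested. The sums without Crabp1 or S100a6 were chosen after seeing the data.

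Over all genes, 183 had P below 0.01 at 2 days, 288 with DESeq2, 284 with no filter and 108 to 219 without 1 sample. Padj below 0.1 was reached by 8 genes, and by 54 with DESeq2, 24 with no filter, 2 over all 10 samples and 1 to 16 without 1 sample. At 4 weeks 116 genes had P below 0.01, 254 with DESeq2, 240 with no filter and 82 to 120 without 1 sample. Padj below 0.1 was reached by 5, and by 43 with DESeq2, 3 with upper quartile scaling, 9 with no filter, 1 over all 10 samples and 0 to 10 without 1 sample. In the interaction 173 had P below 0.01, 338 with DESeq2 and 87 to 269 without 1 sample, and Padj below 0.1 was reached by 2, 39 with DESeq2, 0 over all 20 samples and 0 to 3 without 1 sample.

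Of the 4 results at P below 0.05 within a dataset, Hdc kept it in 8 of 12 alternatives, Fndc3c1 in 8 of 11, Vcan in 10 of 12 and Cdh4 in 9 of 12, each in its direction. With at least 10 counts in every sample 17 of the 30 genes were tested at 2 days and 10 at 4 weeks. No paired analysis was possible because the columns of the count tables carry no replicate numbers of the labels.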

Other observations

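The sample with the most ependymal gene maxima at 2 days was vehicle C02, with 4 of 15 genes. At 4 weeks vehicle C01, which was left out, had 9 of the 15 ependymal genes at 0 counts and Cort C06 and C07 had 7 each, whereas vehicle C03 and Cort C10 had 2 each. Vehicle C02 held the maximum of 4 of the 14 tanycyte genes with counts at 4 weeks, and vehicle C04 of 3. Of the 64 other motile cilium genes 63 had counts in at least 1 sample at 2 days and 62 at 4 weeks.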
